A study of Thermothelomyces thermophilus ATCC 42464 with 8 samples.

Results

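In the H3K9me3 ChIP-seq of Myceliophthora thermophila, 193 of the 5846 peaks of WT replicate 1 were found again in the laeA deletion strain although no peak of WT replicate 2 lay on them. They were chosen from the peak lists alone. A WT replicate 1 peak was kept when it shared at least 1 bp with a peak of ΔlaeA replicate 1 and no base with any peak of WT replicate 2. Of the 5846 peaks, 1699 (29.1%) shared a base with a ΔlaeA replicate 1 peak, 892 (15.3%) shared none with a WT replicate 2 peak, and 193 (3.30%) met both conditions. The 193 are called shared outside sites here. The other WT replicate 1 peaks comprised 1506 shared inside peaks, which lay on a WT replicate 2 peak and were also found in ΔlaeA replicate 1, 699 unshared outside peaks and 3448 unshared inside peaks. Sharing and position relative to WT replicate 2 chose the sites and are given as a description.

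H3K9me3 is trimethylation of lysine 9 of histone H3. In filamentous fungi it is laid down by a SET-domain methyltransferase and bound by heterochromatin protein HP1, and it marks compact, gene-poor and repeat-rich chromatin such as centromeres and subtelomeres. LaeA is a putative methyltransferase that controls secondary metabolite gene clusters in many fungi, and the study profiled the mark to learn what changes when laeA is absent.

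The strains were M. thermophila ATCC 42464 (WT), a thermophilic cellulolytic fungus, and ΔlaeA, made from it by replacing the laeA coding region with a neo resistance marker through Cas9. Both were grown as mycelium at 45 °C for 24 h in Vogel's salts with 2% glucose. There were 2 ChIP and 2 input libraries per strain, and no label says whether the replicates were separate cultures. The labels name antibody ab8898 for WT and ab8902 for ΔlaeA, whereas the methods name ab8898. The series description names H3K79me3, whereas the title, labels and methods name H3K9. Antibody and strain therefore cannot be told apart from the labels.

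Each ChIP library came with its own list of peaks. The WT replicate 1 list held 10000 entries that joined into 5846 peaks and the ΔlaeA replicate 1 list held 3054 peaks, both with median folds near the lower end of their range (1.39 and 1.41). Their highest −log10 q values were 0.874 and 2.17, and 0 and 4 peaks, respectively, had a q under 0.05. The 3329 WT replicate 2 peaks all had a q under 0.05, were longer (median 1536 bp) and had a median fold of 2.07. The ΔlaeA replicate 2 list used here ended at position 3058073 of chromosome 1. The depth of the libraries is unknown, and replicate 1 and replicate 2 lists differed in cut-off and scale, so their scores were not compared with each other. As each list is 1 library and neighbouring peaks share it, differences between classes of peaks are described below without a test.

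The shared outside sites lay close to the domains that WT replicate 2 called. The rule set no distance beyond not touching one, but it asked for a ΔlaeA replicate 1 peak at the site. Of the 562 ΔlaeA replicate 1 peaks outside WT replicate 2 peaks, 468 lay within 1000 bp of one. As the rule drew on these peaks, the closeness is given as a description. For the sites the median distance to the nearest WT replicate 2 peak was 295 bp, with quartiles at 96.0 and 551 bp and a range from 2 to 45752 bp. The 699 unshared outside peaks had a median of 880 bp with quartiles at 220 and 4908 bp. Within 1000 bp of a WT replicate 2 peak were 163 of the 193 shared outside sites (84.5%) and 368 of the 699 unshared outside peaks (52.6%). Only 9 shared outside sites lay more than 3000 bp away, of which 3 lay more than 10000 bp away.

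The share of outside peaks that were found in ΔlaeA replicate 1 fell with distance from the WT replicate 2 peaks. It was 35.5% at 1 to 100 bp (50 of 141 peaks), 27.6% at 101 to 300 bp (50 of 181) and 30.1% at 301 to 1000 bp (63 of 209). It was 15.6% at 1001 to 3000 bp (21 of 135), 7.41% at 3001 to 10000 bp (6 of 81) and 2.07% beyond 10000 bp (3 of 145). Over all outside peaks it was 21.6%, beside 30.4% of the 4954 peaks on a WT replicate 2 peak. Within 1000 bp the share was 30.7%, close to that of peaks inside the domains, and beyond 1000 bp it was 8.31%. This fall was not tested, as all peaks come from the same pair of libraries.

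**Figure D1:**
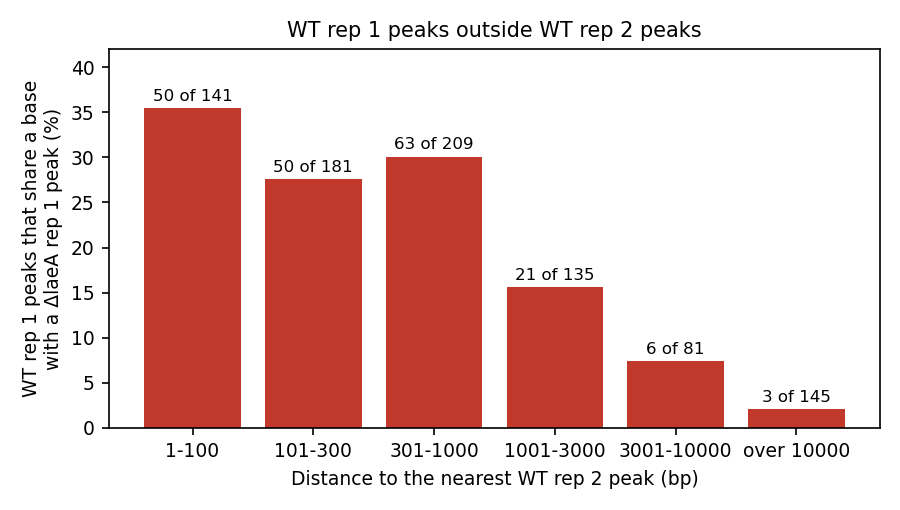
Percent of WT replicate 1 peaks outside WT replicate 2 peaks that share a base with a ΔlaeA replicate 1 peak (vertical axis), by distance to the nearest WT replicate 2 peak in bp (horizontal axis), with the number shared of the number of peaks over each bar. The share lies between 27.6% and 35.5% within 1000 bp and is 2.07% beyond 10000 bp.

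Peak length went with sharing as well, and a longer peak has more bases that can meet another peak. Among outside peaks within 1000 bp, the shared percentage was 21.4% below 200 bp of length, 24.3% from 200 to 299 bp, 35.5% from 300 to 499 bp and 56.6% from 500 bp on. Beyond 1000 bp the same classes gave 2.27%, 1.59%, 7.07% and 39.6%. The lower share at distance was thus present in each of the 4 length classes. In the longest class beyond 1000 bp, 19 of 48 peaks were shared, and these made up most of the 30 remote shared outside sites.

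The ΔlaeA list gave a different course with distance. Of 3054 ΔlaeA replicate 1 peaks, 1842 (60.3%) shared a base with a WT replicate 1 peak. The share was 53.4% for the 468 ΔlaeA peaks that lay within 1000 bp of a WT replicate 2 peak without touching it, and 51.1% for the 94 that lay farther away. Of these 94, 38 of 61 were shared at 1001 to 3000 bp (62.3%), 7 of 17 at 3001 to 10000 bp (41.2%) and 3 of 16 beyond 10000 bp (18.8%). On WT replicate 2 peaks lay 2492 ΔlaeA peaks (81.6%), and 62.0% of these were shared. The WT replicate 1 list held 361 peaks over 1000 bp from any WT replicate 2 peak, and the ΔlaeA replicate 1 list held 94. The part of these numbers in the fall with distance was not tested.

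By the rule every site lay outside the called peaks, and most of the gaps that held the sites were wider than the median gap. A wider gap has more room for a peak, so this width is given as a description. The gap between the WT replicate 2 peaks on either side of a shared outside site had a median width of 2148 bp (quartiles 1259 and 5934 bp), compared with 7702 bp (2181 and 54566 bp) for unshared outside peaks. All gaps between WT replicate 2 peaks had a median of 952 bp. A WT replicate 2 peak lay within 1000 bp on both sides of 76 shared outside sites (39.4%) and on 1 side of 87 more (45.1%). For unshared outside peaks these were 120 (17.2%) and 248 (35.5%). Medians for the nearest WT replicate 2 peak were 1920 bp of length and a fold of 2.18 at shared outside sites, and 972 bp and 1.81 at unshared outside peaks. All WT replicate 2 peaks together had 1536 bp and 2.07, so the sites lay beside peaks somewhat longer than the average called peak.

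The wider surroundings gave the same order. Of the 10000 bp on either side of a shared outside site, a median of 51.8% lay in WT replicate 2 peaks (quartiles 31.9% and 64.1%). The median was 25.1% for unshared outside peaks, 69.6% for shared inside peaks and 77.0% for unshared inside peaks. At 10000 bp from the centre, 54.9% of the shared outside sites had a WT replicate 2 peak at that position to the left and 48.2% to the right.

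**Figure D2:**
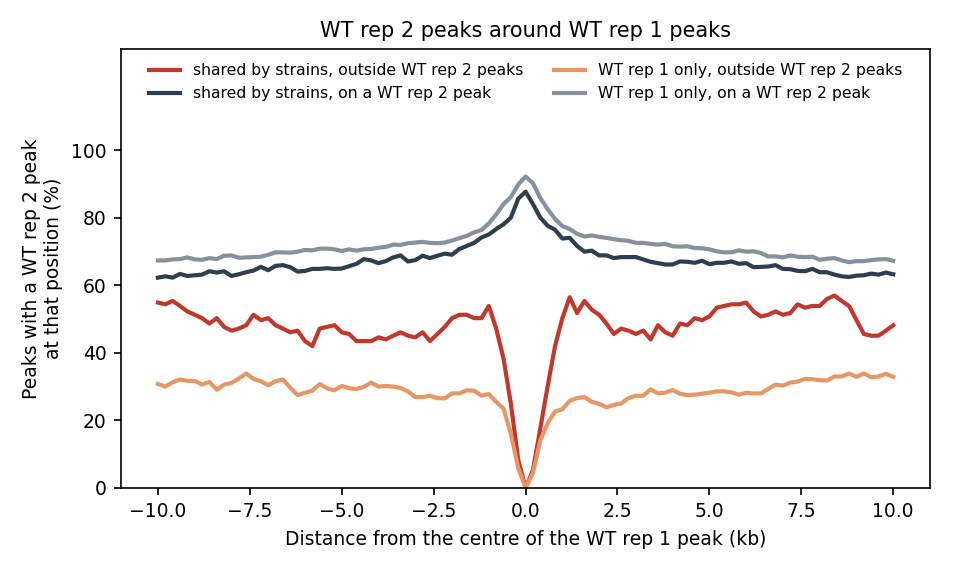
Percent of WT replicate 1 peaks with a WT replicate 2 peak at a given position (vertical axis) against the distance of that position from the peak's centre in kb (horizontal axis), for the 4 classes of peaks. The curve of the shared outside sites is at 0 at the centre by the rule, returns to 53.9% at 1000 bp to the left and 50.3% at 1000 bp to the right, and lies above that of the unshared outside peaks on either side of the centre.

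The sites were spread over all 7 chromosomes. There were 30 on chromosome 1, 23 on chromosome 2, 24 on chromosome 3, 32 on chromosome 4, 32 on chromosome 5, 36 on chromosome 6 and 16 on chromosome 7. Per Mb this was between 2.74 on chromosome 1 and 8.72 on chromosome 6. All WT replicate 1 peaks followed the same extremes, with 87.8 per Mb on chromosome 1 and 256 per Mb on chromosome 6. As a percentage of the WT replicate 1 peaks of a chromosome the sites varied less, from 2.81% on chromosome 7 to 4.50% on chromosome 2. Of the outside peaks of chromosome 1, 13.6% were shared, and on the other chromosomes the value was between 20.7% and 26.7%.

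**Figure D3:**
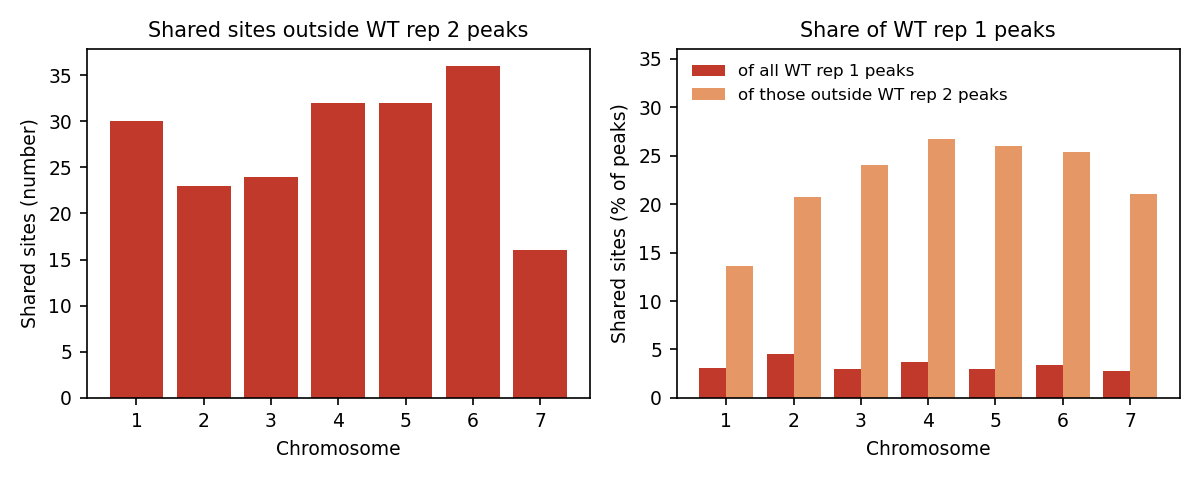
Number of shared outside sites on each of the 7 chromosomes (left panel) and the percent they make of all WT replicate 1 peaks and of those outside WT replicate 2 peaks (right panel, dark and light bars). The number is highest on chromosome 6 (36) and lowest on chromosome 7 (16), and the percent of outside peaks is lowest on chromosome 1 (13.6%).

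Chromosome 6 also held 12 of the 30 sites that lay over 1000 bp from a WT replicate 2 peak, and no other chromosome held more than 5. Its sites had the largest median length (448 bp) and the highest median fold (1.47), beside 301 to 399 bp and 1.39 to 1.44 on the others. The same values were not taken by chromosome for the other peaks. They are thus not read as particular to chromosome 6, which held 142 of the 892 outside peaks. Some sites lay near chromosome ends. Measured to the last position that any list reached, 9 sites (4.66%) lay within 50000 bp of a chromosome end, beside 6.06% of all WT replicate 1 peaks and 1.81% of the span of the chromosomes.

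Some sites came in groups. With a limit of 10000 bp between neighbours, the 193 sites formed 145 groups, of which 114 were single sites, 31 held 2 or more and 8 held 3 or more. In all, 79 sites (40.9%) had a neighbour. Groups were not counted for the other classes of peaks. As all WT replicate 1 peaks numbered 87.8 to 256 per Mb by chromosome, grouping is not read as particular to the sites. The largest group was chr4:4123386-4140078, with 6 sites among 14 WT replicate 1 peaks and 5 WT replicate 2 peaks. The second was chr6:2212492-2232609, with 5 sites among 9 WT replicate 1 peaks and 2 WT replicate 2 peaks.

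In 11 of the 31 groups, which together held 28 sites, no WT replicate 2 peak lay in the span. Among the 5 groups with the most sites 3 were of this kind. On chr2:854862-860554 all 4 WT replicate 1 peaks of the span were shared outside sites, with folds between 1.44 and 1.65. On chr6:26709-33075 these were 4 of 7 peaks with folds between 1.47 and 1.73, and on chr6:1529878-1534801 they were 4 of 5 peaks with folds between 1.28 and 1.47.

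The sites were longer and scored higher than other outside peaks, and lower than shared inside peaks. The median length was 363 bp (quartiles 236 and 574 bp, range 147 to 3431 bp), beside 250 bp for unshared outside, 279 bp for unshared inside and 468 bp for shared inside peaks. The median fold enrichment was 1.42 (quartiles 1.34 and 1.53), beside 1.36, 1.39 and 1.47 in the same order. The median −log10 p was 2.24, beside 1.87, 1.98 and 2.53. A −log10 p of at least 2 was reached by 119 of the 193 sites (61.7%), beside 50.9% of all WT replicate 1 peaks. Several entries, which the caller gives for separate sub-summits, made up 89 of the sites (46.1%). The share was 21.7% for unshared outside (152 of 699), 58.8% for shared inside and 28.0% for unshared inside peaks. Scores are the highest over the entries of a peak, which can favour peaks with several. With means over entries the sites had a median fold of 1.40 and a median −log10 p of 2.09. The other classes were not recomputed in this way. None of the sites passed a q of 0.05, as no peak of that list did, and the highest −log10 q of 0.87 was reached by 15 of them.

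Part of this order followed length. At 147 to 199 bp the median fold was 1.40 for 33 shared outside sites and 1.36 for 200 unshared outside peaks. At 200 to 299 bp it was 1.37 for 48 sites and 1.33 for 267 peaks, and at 300 to 499 bp it was 1.41 for 50 sites and 1.38 for 170 peaks. At 500 bp and more it was 1.55 for 62 sites and 1.49 for 62 peaks. The sites thus kept a higher median fold in each length class, by less than the quartile range of the sites as a whole. Across the 193 sites, fold rose with length (Spearman's rho 0.50), and both come from the same signal of 1 library.

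The highest fold enrichment was at chr1:5065187-5067618, a peak of 2432 bp on the body of MYCTH_77342, with a pileup of 71.97, a fold of 1.87 and a −log10 p of 6.23. The ΔlaeA replicate 1 peak at this site covered 651 bp and had a fold of 1.39. The site at chr6:3509054-3510997 followed with a fold of 1.86 in WT and 1.43 in ΔlaeA, and lay 4085 bp from the nearest gene, MYCTH_2310986. The longest site, chr4:4433108-4436538 with 3431 bp, reached the bodies of MYCTH_68654 and MYCTH_17759, had a fold of 1.86 in WT and met 3 ΔlaeA peaks, the highest with a fold of 1.66. These sites lay 1499, 316 and 437 bp from a WT replicate 2 peak. The 30 sites over 1000 bp away had a median fold of 1.47 in WT, and the 163 nearer sites 1.41.

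The next strongest followed the same pattern of high WT and lower ΔlaeA folds. At chr4:329550-330330 the fold was 1.82 in WT and 1.31 in ΔlaeA. At chr1:2917747-2918812 it was 1.80 and 1.58, and at chr5:122876-123751, on MYCTH_2307892, it was 1.79 and 1.58. At chr2:5397797-5398345, which lay wholly inside MYCTH_2133773, it was 1.77 and 1.60. These sites were ranked by the WT value and each list has its own background, so no difference between the strains is drawn from them.

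Ranked by ΔlaeA, other sites came first. The highest ΔlaeA fold was 1.88, at chr3:2789502-2790422, where the WT fold was 1.60 and the nearest gene, MYCTH_2060489, lay 14421 bp away. This was also the partner with the highest −log10 q, at 1.07. The site at chr5:817811-819148, on MYCTH_2308076 and MYCTH_2308077, had 1.79 in ΔlaeA and 1.69 in WT. The site at chr3:3987896-3988187 had 1.77 in ΔlaeA and 1.36 in WT. No site was among the 3 highest in both strains.

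Over all 193 sites the folds of the strains went together only weakly. Pearson's r between the WT fold and the highest ΔlaeA fold at the site was 0.18 and Spearman's rho was 0.14. The 1506 shared inside peaks gave 0.16 and 0.15. Both values describe sites of 1 library against 1 library, with scores that take few distinct values near the cut-off.

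**Figure D4:**
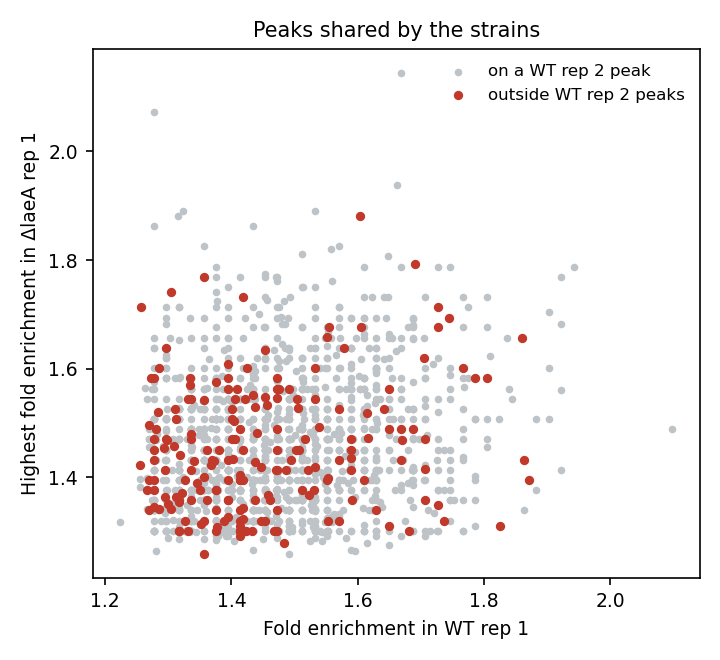
Fold enrichment in WT replicate 1 (horizontal axis) against the highest fold enrichment of the ΔlaeA replicate 1 peaks at the same place (vertical axis), for the 193 shared outside sites (dark) and the 1506 shared inside peaks (grey). Both sets form broad clouds with little slope (Pearson's r 0.18 and 0.16), and the highest sites reach 1.87 in WT and 1.88 in ΔlaeA.

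The 193 sites met 208 ΔlaeA replicate 1 peaks. A single ΔlaeA peak was met by 177 sites, and 16 sites met 2 or 3. The 208 peaks had a median length of 316 bp, a median fold of 1.43 and a median −log10 p of 2.16, and the ΔlaeA list as a whole had 261 bp, 1.41 and 2.10. A −log10 q above 0 was given for 50 of them (24.0%), beside 496 peaks of the whole list (16.2%). The partners thus stood slightly above the average of their own list, as the sites did in theirs. They were chosen for meeting a WT peak, which a longer peak can do more easily, and were not compared at like length. Among the 208, 35 (16.8%) touched a WT replicate 2 peak themselves, so that 34 sites outside the domains in WT joined them through the ΔlaeA peak. The other 159 sites had no such contact.

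At most sites the peaks coincided over a good part of their length. The shared stretch had a median of 205 bp (quartiles 111 and 312 bp, range 3 to 1430 bp) and 49.0% of the bases of the sites lay in ΔlaeA peaks, beside 43.0% at shared inside peaks. At 154 sites (79.8%) the overlap covered at least 50% of the shorter peak, which is close to the 80.4% of shared inside peaks. The summits of the strains were a median of 135 bp apart, and 157 bp at shared inside peaks. Both classes were chosen for sharing a base, and shared inside peaks were longer, which bears on each of these measures. The values are thus a description, and no closeness of match is ranked by them.

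The edge of the rule was sharp in bases and not in values. The sites with the fewest shared bases, all on chromosome 5, were chr5:520353-520720 with 3 bp, chr5:1862668-1862858 with 5 bp and chr5:3606975-3607469 with 5 bp, and had folds of 1.36, 1.44 and 1.45. Just outside the rule, the peak chr1:10727758-10727954 ended 1 bp from a ΔlaeA peak with a fold of 1.38. The peak chr6:2229354-2229553 was 9 bp from one and had a fold of 1.44. On the other edge, chr1:2737366-2737787 was shared but had 5 bp on a WT replicate 2 peak and a fold of 1.49, whereas the site chr5:1862668-1862858 lay 2 bp from such a peak.

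The local background separated outside from inside peaks. It follows from pileup and fold enrichment, and the peak caller takes the larger of the genome-wide level and the level around the peak, so that a peak in surroundings at or below the genome-wide level carries the lowest value of the list (35.1 in WT replicate 1, in pileup units). The shared outside sites had a median background of 35.9 (quartiles 35.1 and 38.0, highest 47.0). The value was at the lowest level in 84 sites (43.5%), in 74.5% of shared inside peaks, in 78.1% of unshared inside peaks and in 27.2% of unshared outside peaks. The median of unshared outside peaks was 37.3, so the sites fell between the inside peaks and the other outside peaks.

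**Figure D5:**
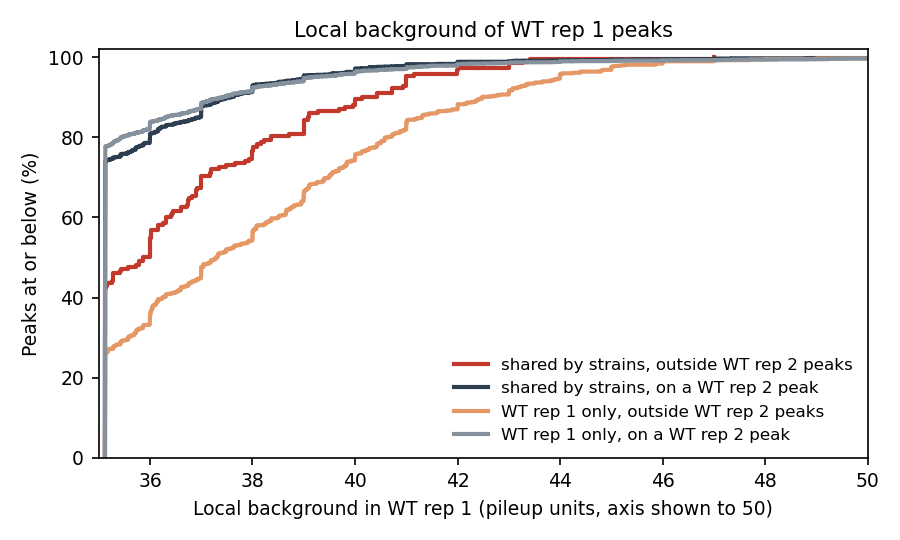
Percent of WT replicate 1 peaks at or below a given local background (vertical axis) against that background in pileup units (horizontal axis, shown to 50), for the 4 classes. Every curve starts with a step at the lowest level of 35.1, which holds 43.5% of the shared outside sites, 27.2% of unshared outside, 74.5% of shared inside and 78.1% of unshared inside peaks.

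Near the domains the difference between the sites and the other outside peaks was small, and at a distance it was large. Within 1000 bp of a WT replicate 2 peak, 43.6% of the shared outside sites and 42.1% of the unshared outside peaks were at the lowest background. Beyond 1000 bp these were 13 of 30 sites (43.3%) and 35 of 331 peaks (10.6%). The surroundings differed in the same way. The 10000 bp on either side of the 30 remote sites lay in WT replicate 2 peaks to a median of 46.9%, and those of the 331 remote unshared peaks to 4.78%. The remote sites thus lay mostly in stretches with many called domains, and the remote unshared peaks mostly in stretches with few.

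The ΔlaeA list gave its own values of the background at the same sites. Of the 208 partners 64.9% were at the lowest level of that list (33.7), beside 75.6% of all ΔlaeA replicate 1 peaks. Of the 109 sites above the lowest level in WT, 52 (47.7%) had a partner above the lowest level in ΔlaeA, whereas this was so for 19 of the 84 sites at the lowest level in WT (22.6%). Spearman's rho between the strains' backgrounds was 0.32 over the 193 sites. Whether a raised background comes from the chromatin, from the input or from the way reads map was not tested, as neither the inputs nor a genome were used.

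The highest background was at chr4:461163-461379, a peak of 217 bp on MYCTH_2127554, with a background of 47.0, a pileup of 64.91 and a fold of 1.37. At chr6:2225949-2226490 the background was 43.4 and the fold 1.29, and at chr4:51310-51688, next to MYCTH_2305743, it was 43.3 with a fold of 1.44. Pileups at these sites were as high as at some sites of much higher fold. At chr4:329550-330330, for instance, the pileup was also 64.91, with a background of 35.1 and a fold of 1.82.

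Most of the sites lay off gene bodies, unlike most of the other outside peaks. Of the 193 sites, 65 (33.7%) shared a base with the body of a protein-coding gene, beside 43.3% of all WT replicate 1 peaks, 62.8% of unshared outside, 45.4% of shared inside and 39.0% of unshared inside peaks. Only 19 sites lay wholly in gene bodies, 46 crossed a gene boundary and 128 lay between genes. Of the bases of the sites 21.2% were in genes, beside 53.1% for unshared outside, 33.7% for shared inside and 38.1% for unshared inside peaks. The value was 21.1% for the WT replicate 2 peaks themselves, whereas gene bodies covered 46.5% of the span of the chromosomes. The 128 intergenic sites lay a median of 468 bp from a gene, and 92 of them within 1000 bp.

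The share on genes rose beyond 1000 bp for unshared outside peaks but not for the sites. Within 1000 bp of a WT replicate 2 peak it was 34.4% for the sites and 47.0% for unshared outside peaks. Beyond 1000 bp it was 30.0% for the 30 sites (9 of 30) and 80.4% for the 331 unshared peaks. Beyond 10000 bp the pattern was different, and all 3 sites there touched a gene, as did 133 of all 145 outside peaks at that distance (91.7%).

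These 3 remotest sites had WT folds below the median of all sites, and ΔlaeA folds close to the median of 1.43 of the partners. The site chr2:4002253-4002514 lay 45752 bp from a WT replicate 2 peak and had folds of 1.35 in WT and 1.38 in ΔlaeA. It overlapped 92 bp of MYCTH_100401, described as a xanthine, uracil and vitamin C permease, a family of proteins that carry nucleobases across membranes. The site chr3:1979578-1980085, 44018 bp away, had 1.34 and 1.43 and overlapped 49 bp of MYCTH_81013. The site chr4:2897372-2897855, 19861 bp away, had 1.37 and 1.43 and overlapped 391 bp of MYCTH_2307045. Their −log10 p values in WT were 1.69, 1.66 and 1.87, all below the median of the sites.

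Between 3001 and 10000 bp there were 6 sites, and their medians were 826 bp of length and a fold of 1.45. The farthest of them, chr6:2295949-2296745, lay 7833 bp away on MYCTH_2112885 and had folds of 1.53 in WT and 1.38 in ΔlaeA, with a background at the lowest level. The next, chr6:2213248-2213849 at 3902 bp, had 1.47 and 1.41 and was part of the second largest group. The 21 sites between 1001 and 3000 bp had the highest median fold of any distance class (1.52) and a median length of 658 bp.

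In all, 67 of 9097 protein-coding genes (0.737%) carried a shared outside site on their body, and 1755 (19.3%) carried any WT replicate 1 peak. Another WT replicate 1 peak was present on 25 of the 67, and a WT replicate 2 peak on 32. The same shares were not counted for other genes, so these numbers do not set the 67 apart. MYCTH_2133773, MYCTH_2308077 and MYCTH_2313078 carried 2 sites each. None of the 194 tRNA genes and tRNA pseudogenes carried a site, and 2 lay within 1000 bp of one, whereas 4 carried any WT replicate 1 peak.

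A description was at hand for 7 of the 67 genes. MYCTH_101623, an Hsp70 heat shock protein and thus a chaperone that helps proteins fold, carried a site at chr3:2690455-2692033 with folds of 1.58 in WT and 1.64 in ΔlaeA. MYCTH_2087998, with an RNA recognition motif, which binds RNA, carried chr1:2797243-2797791 with 1.74 and 1.69. On MYCTH_2095369, a transporter of the major facilitator superfamily, the site chr5:2760182-2760360 had 1.68 and 1.30. These sites lay 14, 35 and 193 bp from a WT replicate 2 peak.

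The sites on the next 3 genes had WT folds of 1.40 or less. MYCTH_2060315, a cytochrome P450, one of a family of oxidising enzymes often found in secondary metabolism, carried chr3:4560361-4561020 with 1.40 in WT and 1.51 in ΔlaeA. MYCTH_2063133, a laccase-like oxidase of phenols, carried chr4:3191939-3192308 with 1.38 and 1.31, at 2982 bp from a WT replicate 2 peak. MYCTH_140261, a glycoside hydrolase, carried chr6:3938934-3939445 with 1.34 and 1.41. Of the 7 genes, 5 also met a WT replicate 2 peak on their body, and the permease and the laccase-like gene did not.

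None of 17 genes that the study followed came within 1000 bp of such a site. Over all 9097 genes this was so for 216 (2.37%), so a count of 0 in 17 does not set these genes apart. The nearest were grf-2 (Mycth_2089183), a growth regulatory factor of the study, at 15697 bp, and pck (Mycth_2315623), phosphoenolpyruvate carboxykinase, at 15727 bp. For laeA (Mycth_2294559) the distance was 262722 bp, for cre-1 (Mycth_2310085), the carbon catabolite repressor, 92393 bp, and for clr-2 (Mycth_38704), an activator of cellulase genes in fungi, 687827 bp. On pck and laeB (Mycth_2295350) lay a WT replicate 1 peak of another class.

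The second ΔlaeA library could be set beside the sites over a small stretch. On the covered part of chromosome 1, 210 of 300 WT replicate 1 peaks (70.0%) lay on a ΔlaeA replicate 2 peak, including 56 of 64 shared inside peaks (87.5%) and 152 of 171 unshared inside peaks (88.9%). Of the 8 shared outside sites in this stretch 1 did (12.5%), and of the 57 unshared outside peaks 1 did (1.75%). The 1 site was chr1:1638635-1638817, which lay over its whole 183 bp on a ΔlaeA replicate 2 peak, had folds of 1.42 in WT and 1.73 in ΔlaeA replicate 1, and lay 830 bp from a WT replicate 2 peak and 609 bp from the nearest gene, MYCTH_2294774.

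The other 7 sites of the stretch lay between 266 and 2147 bp from a ΔlaeA replicate 2 peak and between 35 and 545 bp from a WT replicate 2 peak. They included chr1:2917747-2918812, among the strongest of all sites, at 1317 bp from a ΔlaeA replicate 2 peak, and chr1:2797243-2797791 at 266 bp. Both had ΔlaeA replicate 1 folds of at least 1.58, and neither was called in a replicate 2 list. With 8 sites, the share of 12.5% rests on a single site. When only WT replicate 2 peaks with a fold of at least 2 counted as domains, the stretch held 21 sites and 42.9% of them lay on a ΔlaeA replicate 2 peak. The sites added by this setting lay on WT replicate 2 peaks of lower fold and were shared inside peaks under the main rule. The 2 percentages thus describe different kinds of peak.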

How the data were processed

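Per the labels and methods, the authors trimmed read pairs, mapped them with Bowtie2, retained pairs with a single mapping place and ran MACS2 on each ChIP library. The submitters' processing notes name Trimmomatic 0.36, Bowtie2 2.3.4.3, MACS2 2.1.2 and ChIPseeker 2.16.0, and the methods name Trim Galore and other versions. The deposited pileup is a signal, the number of fragments over the summit, which was rescaled in the replicate 1 lists. Fold enrichment, as deposited, is a ratio with pileup above and local background below, each raised by a pseudocount of 1. The deposited −log10 p and −log10 q are those of the peak caller. The lists name no genome build.

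Entries of equal chromosome, start and end were joined into 1 peak, with the highest score of each kind and the background of the entry of highest fold. Background was computed as (pileup + 1)/fold − 1, and counted as lowest within 0.1 of the minimum of the list. Replicate 1 pileups had been rescaled (0% whole numbers), so depth is unknown. Distances are differences between nearest edges. Gene bodies were those of the RefSeq table of ASM22609v1. When the WT replicate 2 peaks were shifted against them by 200 to 2000 bp to either side, the share of their bases in genes went from 21.1% to between 16.8% and 20.7%. The table gives neither strand nor product, so upstream regions and the planned classes of genes were not analysed here. Descriptions came from the study's gene table, of which 1266 genes were at hand. Sequences and input libraries were not used here.

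The sites and lists were chosen with earlier results of these data known. Single sites were named by rank: fold in each strain, −log10 p, length, background, distance to WT replicate 2, group size, the edges of the rule and the covered part of chromosome 1. From these rankings the text gives the leading sites, and from the genes on sites all those with a description. The code was tested on 2000 simulated peaks of known class. Alternatives were a longer overlap, a minimum distance, stricter scores in each list, each library left out, mean scores and gene flanks. Added after the data were seen were leaving out sites whose ΔlaeA peak touched a WT replicate 2 peak, and starting from the ΔlaeA list. Scripts ran under Python 3.11.15 with matplotlib 3.10.9, scipy 1.17.1, pandas 2.3.3 and numpy 2.4.6.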

Additional observations from a re-analysis of the deposited data

How the results depend on the processing

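No paired analysis was possible because the values describe peaks and come from no test. A count was taken to hold within 1.5 times, a median within its 95% order-statistic interval and a percent within its 95% binomial interval, intervals that treat peaks as independent. Of 89 values recomputed for 9 results, 49 held and 40 moved. Sites at least 1000 bp from WT replicate 2 peaks numbered 30, with medians of 630 bp, −log10 p 2.54, fold 1.47, background 36.4 and distance 1786 bp. With only WT replicate 2 peaks of fold 2 or more as domains there were 480 sites, with 466 bp, 2.53, 1.47, a distance of 1198 bp, 49.8% on genes and 42.9% on ΔlaeA replicate 2 peaks. WT peaks of −log10 p of at least 2 left 119 sites, with 424 bp, 2.73, 1.50 and summits 186 bp apart, and the same limit in ΔlaeA left 120 sites. Mean scores over entries gave 2.09 and 1.40. Gene flanks of 500 and 1000 bp gave 67.9% and 81.3% on genes. The first 50% of the covered part gave 0% on ΔlaeA replicate 2, over 2 sites, and no site there lay 1000 bp from WT replicate 2. From the ΔlaeA list the rule gave 298 sites of median length 287 bp. Without WT replicate 2 or without ΔlaeA replicate 1 the number was 892 to 1699, the lengths 265 to 452 bp, −log10 p 1.97 to 2.43, fold 1.38 to 1.45, background 35.1 to 37.0, distance 0 to 602 bp, genes 44.0% to 56.5% and ΔlaeA replicate 2 peaks 3.08% to 79.2%. These 2 settings undo the rule, and without ΔlaeA replicate 1 no summit distance can be had. The low scores of the replicate 1 lists limit all values.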

Other observations

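Started from the ΔlaeA replicate 1 list, the same rule gave 298 peaks, 53.0% of the 562 ΔlaeA peaks outside WT replicate 2 peaks. Of these, 173 met a shared outside site, and 161 of the 193 sites were met by one of them. Their median distance to a WT replicate 2 peak was 304 bp and 27.5% lay on a gene body, beside 295 bp and 33.7% for the sites chosen from WT. The lists thus gave sets of unlike size with like position.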
